A study of Mus musculus with 6 samples.

Results

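The secreted antagonists of Wnt signalling were examined in enterospheres, the free-floating spheroids that cells of the newborn mouse intestinal muscle wall form in culture with growth factors. The set was defined by gene symbol: Sfrp1, Sfrp2, Sfrp4, Sfrp5, Frzb, Dkk1, Dkk2, Dkk3, Wif1 and Sost. All 10 were found, each with 1 transcript cluster (a set of probes summarised to 1 value) of its own, among 19938 genes with such a cluster. Their levels were compared between 3 arrays of proliferating and 3 arrays of differentiating enterospheres.

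Each sample came from the gut of 3 newborn C57BL/6 mice up to 12 hours old, with no transgene, and was hybridised to 1 GeneChip Mouse Gene 1.0 ST array. Proliferating enterospheres spent 11 days in medium with EGF and FGF. Differentiating enterospheres spent 9 days in that medium and the last 2 days in medium without EGF and FGF but with ascorbic acid-2-phosphate, so growth factor withdrawal and ascorbate cannot be told apart. Doses in the labels are 10 ng/mL for EGF and 20 ng/mL for FGF, with dishes of about 50 enterospheres, while the study's methods state another EGF dose, fewer pups and another order of the culture phases. No label ties a replicate number to a shared culture. The study's methods describe 3 independent experiments, each with pups of a single litter, in which picked enterospheres went into either medium. Arrays of the groups may therefore share cultures, and the main fit does not pair them. The p-values measure the spread between these samples alone. Enterospheres are mixtures of neural progenitors, glia, neurons and cells of the gut wall, so fewer cells of a type and less RNA per cell cannot be told apart in any value below.

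Wnt proteins are secreted lipid-modified ligands that bind frizzled receptors and LRP co-receptors, stabilise beta-catenin and so switch on TCF/LEF target genes. Secreted antagonists stop this outside the cell in different ways. The secreted frizzled-related proteins (Sfrp1, Sfrp2, Sfrp4, Sfrp5 and Frzb) carry a frizzled-like cysteine-rich domain and bind Wnts, and Wif1 captures Wnts through a domain of its own. Dickkopf proteins and sclerostin, the product of Sost, bind the LRP co-receptors, although Dkk2 can also activate the pathway in some settings and Dkk3 is a divergent member without a settled role in it. In the gut wall many of these antagonists are known as products of mesenchymal cells.

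RefSeq promoter sequence (assembly GRCm38.p6, used for sequence alone) was held for 7 of the 10 genes, and 3 of them are shown over the 250 bases before the start of transcription, 5′ to 3′ on the strand of the gene. Frzb and Dkk2 are shown because they were the antagonists whose groups did not overlap, and Dkk1 because it was the only one of the 7 with a TCF/LEF core in this window. Capitals mark the TCF/LEF core, searched as CTTTGAT and CTTTGAA, and the TATA motif, searched as TATAAA, on both strands. The TATA motif was added after the letters had been seen, and the motifs did not overlap in these windows.
Frzb, chr2:80447397-80447646, minus strand: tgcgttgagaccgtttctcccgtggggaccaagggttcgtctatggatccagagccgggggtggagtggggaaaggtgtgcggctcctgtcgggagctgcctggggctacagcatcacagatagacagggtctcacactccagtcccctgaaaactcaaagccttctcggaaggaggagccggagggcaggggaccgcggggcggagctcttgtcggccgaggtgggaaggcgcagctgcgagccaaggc
Dkk2, chr3:132085042-132085291, plus strand: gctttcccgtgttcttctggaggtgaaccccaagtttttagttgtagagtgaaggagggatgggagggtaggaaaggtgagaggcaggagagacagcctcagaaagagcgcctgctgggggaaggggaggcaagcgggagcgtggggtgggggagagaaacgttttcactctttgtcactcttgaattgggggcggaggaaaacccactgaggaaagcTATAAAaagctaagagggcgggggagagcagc
Dkk1, chr19:30549497-30549746, minus strand: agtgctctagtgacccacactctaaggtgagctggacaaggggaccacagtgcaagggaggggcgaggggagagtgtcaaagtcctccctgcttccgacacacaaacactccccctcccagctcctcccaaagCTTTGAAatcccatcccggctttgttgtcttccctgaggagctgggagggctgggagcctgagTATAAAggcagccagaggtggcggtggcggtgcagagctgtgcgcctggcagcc

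The core CTTTGAA began 117 bases before the start of Dkk1, and 7.48% of the 32851 promoter windows of the same length held a core of this kind. TATAAA began 54 bases before the start of Dkk1 and 32 bases before that of Dkk2, and a match on the other strand lay in the window of Wif1. Of all windows 12.4% held that motif. CG pairs numbered 16 in the window of Frzb and 7 in that of Dkk2, against a median of 6 over all windows. These matches describe letters and say nothing of whether a factor binds there.

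None of the 10 antagonists passed the test across all clusters: 0 rose, 0 fell and 10 did not pass at an adjusted p under 0.05 from limma, where 4.10% of all 35556 clusters passed (1.95% rose and 2.15% fell). Without adjustment, 2 of the 10 had a limma p under 0.05, beside 15.6% of all clusters. The same 2, Frzb and Dkk2, were called by the methods' t-test at its unadjusted thresholds, which called 4.09% of all clusters (1.70% rose and 2.39% fell), and neither by that test after Benjamini-Hochberg adjustment. In differentiation 5 antagonists lay higher and 5 lower. The median log2 difference was 0.02 over the 10 and 0.03 over all clusters. The largest differences ran in opposite directions, from -0.86 for Sfrp4 to 0.95 for Frzb.

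**Figure D1:**
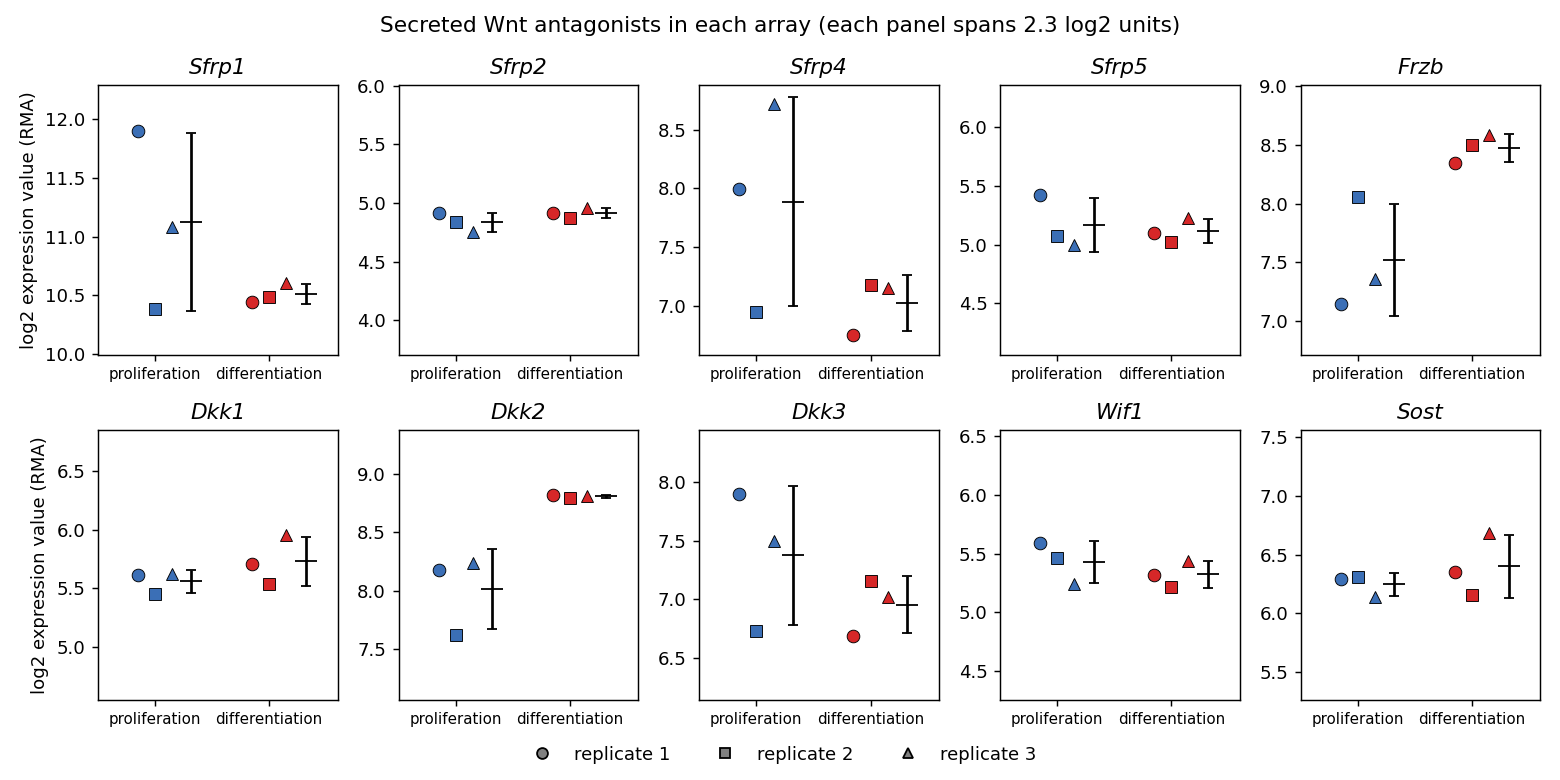
Log2 expression value (vertical axis, RMA) of each antagonist in the 3 proliferation arrays (blue) and the 3 differentiation arrays (red), with the symbol giving the replicate number and the cross and bar the mean and SD of the group. Panels have different offsets but the same span, so distances can be compared, and Dkk2 and Frzb are the panels in which the groups do not overlap.

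Dkk2 came closest to passing. It encodes a dickkopf protein that binds LRP co-receptors. Its log2 values (transcript cluster 10496125) were 8.18, 7.62 and 8.24 in proliferation replicates 1 to 3 and 8.82, 8.79 and 8.81 in differentiation replicates 1 to 3. The differentiation arrays were nearly equal and each lay above every proliferation array. The mean went from 8.01 ± 0.34 to 8.81 ± 0.015 (SD, n = 3), a log2 difference of 0.79 (standard error 0.17, 95% interval 0.40 to 1.19, adjusted p = 0.0518 from limma), or 1.73-fold.

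Frzb, a frizzled-related protein first known from cartilage, had the largest difference of the set. Its log2 values (transcript cluster 10484307) were 7.14, 8.06 and 7.36 in proliferation and 8.34, 8.50 and 8.58 in differentiation. Proliferation replicate 2 was the highest of its group and still lay below the lowest differentiation array. The mean went from 7.52 ± 0.48 to 8.48 ± 0.12 (SD, n = 3), a log2 difference of 0.95 (standard error 0.23, 95% interval 0.41 to 1.50, adjusted p = 0.0806 from limma), or 1.94-fold. Groups that did not overlap were found in 2 of the 10 antagonists and in 22.2% of all clusters. The study names Frzb and Dkk2 in its table of Wnt genes, chosen on these samples, so their place there is not independent evidence of the direction.

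Whether Frzb and Dkk2 passed depended on the array of proliferation replicate 2 and on the set of clusters in the fit and its adjustment. Without that array Frzb had a log2 difference of 1.22 (adjusted p = 0.00909) and Dkk2 one of 0.60 (adjusted p = 0.0246), in a fit that called 3.41% of all clusters. With the fit and the adjustment over the clusters with 1 gene symbol alone, both also passed (adjusted p = 0.0292 for Frzb and 0.0168 for Dkk2 from limma). That fit called 2038 of its 21789 clusters, against 1459 of 35556 in the fit over all clusters. The choice of clusters changed the variance estimate of limma as well as the adjustment. Leaving out any other single array gave adjusted p from 0.153 to 0.259 for Frzb and from 0.0746 to 0.193 for Dkk2.

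Sfrp4, Sfrp1 and Dkk3 lay lower in differentiation, but with overlapping groups. Sfrp4 encodes a frizzled-related protein of mesenchymal tissues. Its log2 values (transcript cluster 10403834) were 8.00, 6.94 and 8.72 in proliferation and 6.75, 7.17 and 7.15 in differentiation. Replicate 2 of proliferation fell inside the range of differentiation, and the other proliferation arrays lay above it. The log2 difference was -0.86 (standard error 0.41, 95% interval -1.85 to 0.12, adjusted p = 0.392 from limma).

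Sfrp1, another Wnt-binding frizzled-related protein, had log2 values (transcript cluster 10570957) of 11.90, 10.38 and 11.08 in proliferation and 10.44, 10.48 and 10.60 in differentiation. Replicate 2 was again lowest in proliferation and here lay below all differentiation arrays. The log2 difference was -0.62 (standard error 0.35, 95% interval -1.44 to 0.20, adjusted p = 0.471). Dkk3, the divergent dickkopf, had log2 values (transcript cluster 10567010) of 7.90, 6.73 and 7.50 in proliferation and 6.69, 7.16 and 7.02 in differentiation. Its log2 difference was -0.42 (standard error 0.29, 95% interval -1.12 to 0.27, adjusted p = 0.574). The intervals of these genes allow both a fall of over 2-fold and a small rise.

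Proliferation replicate 2 moved all 3 of these differences. Without it the log2 difference was -1.33 for Sfrp4 (adjusted p = 0.0510), -0.99 for Sfrp1 (adjusted p = 0.109) and -0.74 for Dkk3 (adjusted p = 0.122), while without proliferation replicate 1 that of Sfrp1 was -0.23 and that of Dkk3 -0.16, and without proliferation replicate 3 that of Sfrp4 was -0.45. Without differentiation replicate 1 that of Dkk3 was -0.29. No antagonist with a lower mean in differentiation passed in any of these fits.

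**Figure D2:**
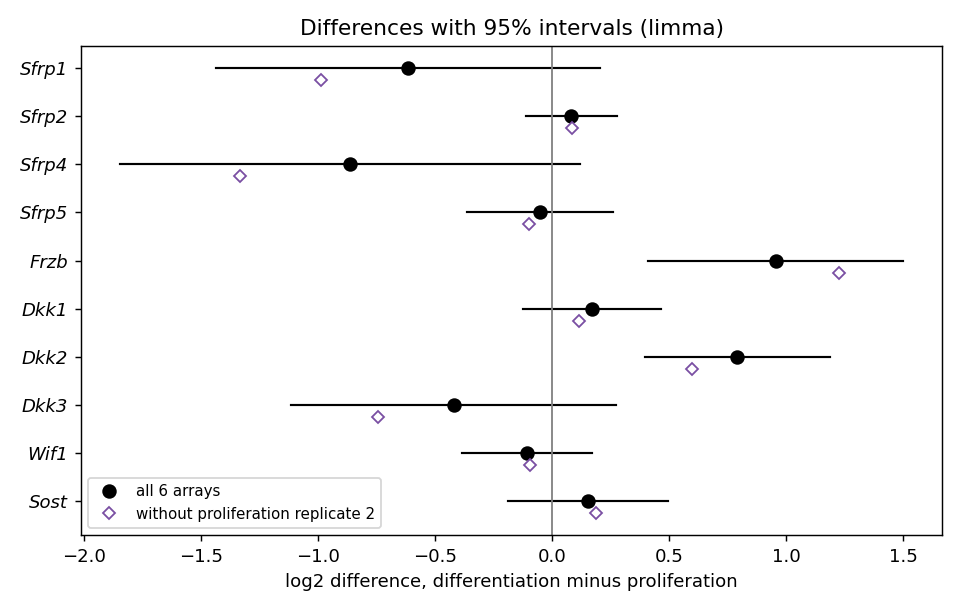
Log2 difference, differentiation minus proliferation (horizontal axis), of each antagonist (vertical axis), with black points and 95% intervals from limma over all 6 arrays and open diamonds for the fit without proliferation replicate 2. The intervals of Frzb and Dkk2 lie above 0 before adjustment, and those of the other 8 include 0. The diamonds of Sfrp1, Sfrp4, Dkk3 and Frzb lie farther from 0 than the points, as by less do those of Sfrp2, Sfrp5 and Sost. Those of Dkk1, Dkk2 and Wif1 lie closer to 0.

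The remaining antagonists differed little between the groups. Sfrp2, Sfrp5, Dkk1 and Wif1 had means over the 6 arrays below 6.15, the median of all cluster means, and no detection call was available, so whether they were expressed cannot be told. Their log2 differences were 0.08 for Sfrp2, -0.05 for Sfrp5, 0.17 for Dkk1 and -0.11 for Wif1. Sost, which is best known from bone, had log2 values of 6.29, 6.31 and 6.14 in proliferation and 6.36, 6.16 and 6.69 in differentiation, a log2 difference of 0.15 (95% interval -0.19 to 0.50, adjusted p = 0.692 from limma). Dkk1, itself a known target of Wnt signalling, had log2 values of 5.61, 5.45 and 5.63 in proliferation and 5.71, 5.54 and 5.95 in differentiation (95% interval of the difference -0.13 to 0.47, adjusted p = 0.599). The values of both genes overlapped between the groups. With each array left out, the difference lay between 0.01 (without differentiation replicate 3) and 0.28 for Sost and between 0.06 and 0.27 for Dkk1.

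Sfrp2, a frizzled-related protein, had log2 values of 4.91, 4.84 and 4.75 in proliferation and 4.91, 4.87 and 4.96 in differentiation, and the narrowest interval of the set, from -0.11 to 0.28 (adjusted p = 0.712 from limma). Sfrp5, of the same family, had log2 values of 5.43, 5.07 and 5.00 in proliferation and 5.10, 5.02 and 5.22 in differentiation (interval -0.37 to 0.26, adjusted p = 0.900). Wif1 had log2 values of 5.59, 5.46 and 5.24 in proliferation and 5.32, 5.21 and 5.44 in differentiation (interval -0.39 to 0.17, adjusted p = 0.742). In these genes the arrays of both groups were mixed, and none of the intervals reached a difference of 1.5-fold.

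The antagonists also differed in how far the replicate cultures lay apart. In proliferation the SD was 0.89 for Sfrp4, 0.76 for Sfrp1, 0.59 for Dkk3, 0.48 for Frzb and 0.34 for Dkk2, where the median SD of all clusters was 0.13. Of all clusters 99.8% had a smaller SD in proliferation than Sfrp4, 99.5% than Sfrp1, 98.6% than Dkk3, 96.6% than Frzb and 90.6% than Dkk2. For the remaining antagonists this share lay between 27.9% (Sfrp2) and 78.6% (Sfrp5). The comparison takes in dim clusters, whose differences RMA compresses. In differentiation the SD was 0.24 for Sfrp4, 0.08 for Sfrp1, 0.24 for Dkk3, 0.12 for Frzb and 0.015 for Dkk2, against a median of 0.12. The SD was larger in proliferation for 8 of the 10 antagonists and for 51.1% of all clusters. These are descriptions of 3 arrays a group, picked out after the values were seen, and no test of the spread was made.

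The replicates were not in the same order for these genes. Among the proliferation arrays, replicate 2 was lowest for Sfrp1, Sfrp4, Dkk1, Dkk2 and Dkk3, that is for 5 of the 10 antagonists and for 37.0% of all clusters. It was highest for Frzb and Sost, and for 33.1% of all clusters. In proliferation the order of the replicates for Frzb was thus the reverse of that for Sfrp1 and Dkk3. Sfrp4 ran opposite to Frzb in replicate 2 alone. In the mean of the groups Frzb ran opposite to Sfrp1, Sfrp4 and Dkk3.

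Markers of the cells that the spheres can hold were set beside these values. The defining genes of the enteric neural lineage were clearly measured, with log2 values of 11.30 to 11.71 for Sox10, the transcription factor of enteric glia and progenitors, and of 11.14 to 11.51 for Ret, the receptor of enteric neural progenitors and neurons. Of 8 smooth muscle markers 4 rose and 1 fell, and the mean of the list lay between 6.97 and 7.04 in proliferation and between 7.44 and 7.59 in differentiation. Of 8 fibroblast markers 1, Dpt, rose, and the mean of the list lay between 9.39 and 9.93 in proliferation and between 9.77 and 9.93 in differentiation. Of 3 markers of interstitial cells of Cajal, the pacemaker cells of the gut, 1, Ano1, fell. Kit and Etv1 were lower as well, with log2 differences of -0.85 and -0.21, but did not pass (adjusted p = 0.0501 and 0.264 from limma). The mean of this list lay between 10.70 and 11.09 in proliferation and between 10.06 and 10.23 in differentiation. Each of the 6 markers of dividing cells fell, with a median log2 difference of -2.24. Of 7 markers of enteric glia and neural crest 1 rose and 2 fell, and of 7 neuronal markers 1 rose. The markers of mesothelium, endothelium, macrophages and epithelium had no gene past the test, and their list means stayed between 4.88 and 6.10 in all arrays.

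In several of these lists proliferation replicate 2 was also the lowest or the highest of its group. That array was the lowest of its group for 7 of 8 fibroblast markers, 7 of 7 neuronal markers, 3 of 3 markers of interstitial cells of Cajal and 4 of 5 mesothelial markers. It was the highest for 6 of 7 glial and neural crest markers and for 6 of 6 markers of dividing cells. Of all clusters 37.0% were lowest and 33.1% highest in that array among the proliferation arrays. The list mean of dividing cells was 9.54, 10.33 and 9.86 in proliferation replicates 1 to 3, that of fibroblasts 9.93, 9.39 and 9.59, and that of mesothelium 6.10, 5.52 and 5.69. For fibroblasts and mesothelium replicate 1 lay farther from replicate 3 than replicate 2 did. Wt1, a transcription factor of mesothelial cells, had log2 values of 7.62, 6.32 and 6.58 in proliferation and 6.45, 6.68 and 6.59 in differentiation. Of the 5 mesothelial markers only 1, Wt1, had a mean at or above the median of all cluster means. Whether the others were expressed cannot be told. The part of these cell types in the values of Sfrp1, Sfrp4, Dkk3, Frzb and Dkk2 was not tested.

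**Figure D3:**
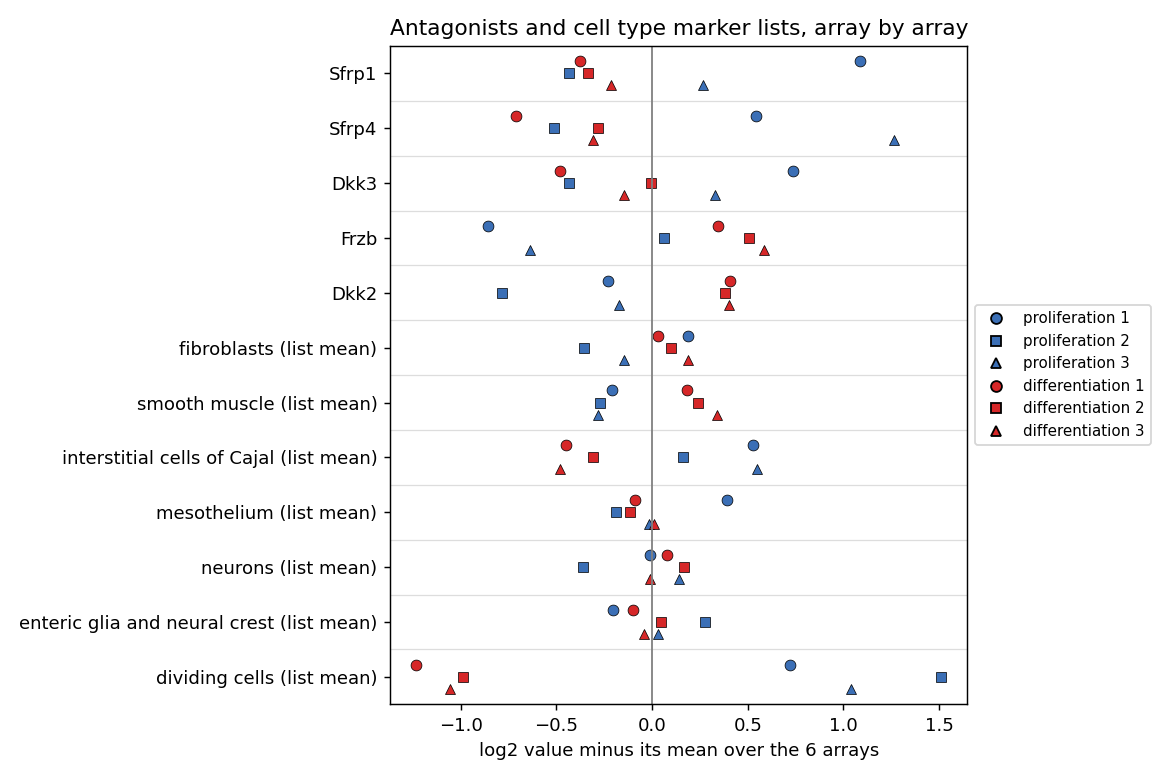
Log2 value of 5 antagonists and mean log2 value of 7 cell type marker lists in each array, as the distance from the mean over the 6 arrays (horizontal axis), with blue for proliferation, red for differentiation and the symbol for the replicate number. The blue square, proliferation replicate 2, lies at the level of the red points for Sfrp1, Sfrp4 and Dkk3. It lies lowest of all for Dkk2 and the fibroblast, neuronal and mesothelial lists, and highest for the glial and dividing cell lists.

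Of 15 other inhibitors that act outside the cell or at its surface, 4 rose and 0 fell, and 11 stayed short of the threshold, with a median log2 difference of 0.14. Notum, a secreted enzyme that removes the lipid from Wnt proteins, had log2 values of 5.59, 5.93 and 5.79 in proliferation and 7.10, 7.04 and 7.36 in differentiation. Its groups lay far apart, and its log2 difference was 1.40 (standard error 0.13, adjusted p = 0.00425 from limma). Tpbg, a membrane glycoprotein that dampens Wnt signalling, rose by 1.31 in log2 units, and Lrp4, a receptor that binds sclerostin and dickkopf proteins, by 0.98 (adjusted p = 0.00626 and 0.00363). Draxin, a secreted guidance protein that also inhibits Wnt signalling, rose by 0.58 (adjusted p = 0.0203 from limma). That call was lost without 5 of the 6 arrays in turn (adjusted p from 0.0579 to 0.0991). The mean of Draxin over the 6 arrays, 6.10, lay below the median of all cluster means (6.15), and no detection call was available. Kremen1 and Kremen2, the co-receptors through which dickkopf proteins remove LRP from the surface, did not pass, with log2 differences of -0.29 and 0.05. The study's table of Wnt genes names Notum and Lrp4, chosen on these samples, and does not name Tpbg and Draxin.

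Among the Wnt ligands and the genes of their secretion, 1 of 21 rose, 1 fell and 19 did not pass. Wnt7b rose by 1.56 (adjusted p = 0.00405 from limma). Wnt5a, a ligand known mostly for noncanonical signalling, fell by 1.22 in log2 units (adjusted p = 0.00766). The call of Wnt5a was lost without differentiation replicate 1 (adjusted p = 0.0502).

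Of 25 receptors, co-receptors and genes of the R-spondin system, which keeps frizzled receptors at the surface, 1 rose, 2 fell and 22 did not pass. Fzd7 fell by 1.18 (adjusted p = 0.00571) and Lrp5, a co-receptor that dickkopf proteins and sclerostin bind, fell by 0.65 (adjusted p = 0.0161). Fzd8 rose by 0.54 (adjusted p = 0.0455 from limma). The call of Lrp5 was lost without differentiation replicate 1 or 2 or proliferation replicate 3 (adjusted p from 0.0536 to 0.0916), and that of Fzd8 without any single array (adjusted p from 0.0850 to 0.152).

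Of 13 direct targets of canonical Wnt signalling, 4 rose, 2 fell and 7 did not pass. Tnfrsf19, a receptor of the TNF family, Nkd1, an intracellular feedback inhibitor, Ccn4, a matricellular protein, and Axin2, a scaffold of the beta-catenin destruction complex, rose by 2.04, 1.69, 1.32 and 0.80. Lef1, a transcription factor of the pathway, and Ccnd1, the cyclin that drives entry into the cell cycle, fell by 1.42 and 1.31 in log2 units. Adjusted p from limma lay between 0.00244 for Nkd1 and 0.0342 for Ccn4. Without 1 array the calls of Axin2, Lef1 and Ccn4 could be lost (adjusted p from 0.0600 to 0.132, each without differentiation replicate 1 or 2 or proliferation replicate 3, and for Lef1 and Ccn4 also without differentiation replicate 3). The study's table of Wnt genes, chosen on these samples, names 5 of these 6 changed genes, and Tnfrsf19 is the other. There Lef1 stands with the signalling cascade and Nkd1 with the inhibitors, not with the targets. For all of these lists the share of all clusters past the test is the 4.10% given above.

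**Figure D4:**
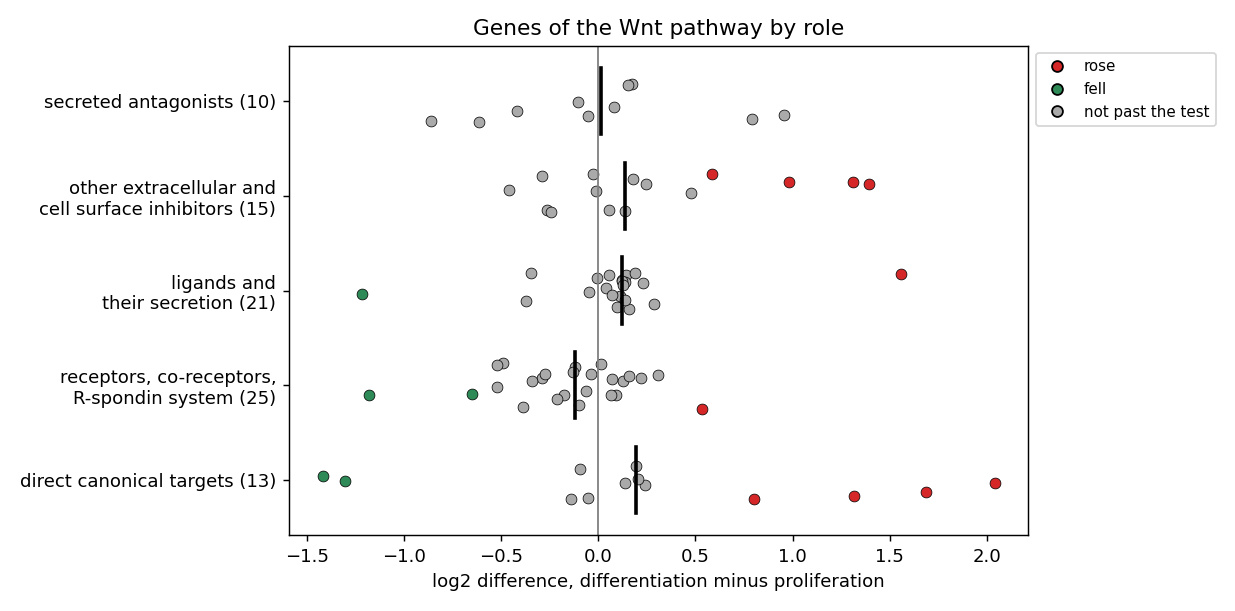
Log2 difference, differentiation minus proliferation (horizontal axis), of each measured gene of the Wnt pathway, in 5 lists by role with the number of genes in brackets. Colour gives the limma call at the 0.05 threshold (red for genes that rose, green for genes that fell, grey for the rest), the black bar is the median of a list, and the vertical scatter carries no value. The 10 secreted antagonists are all grey and spread to both sides of 0, and among the other 15 inhibitors 4 are red and none is green.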

How the data were processed

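Expression was measured in 6 enterosphere samples, 3 per group as given by the labels, on GeneChip Mouse Gene 1.0 ST arrays. Per the study's methods and the labels, the authors scanned the arrays with AGCC 3.0, checked them in Expression Console 1.0 and normalized them by RMA in Partek Software 6.6. The deposited values are log2 intensities. The genome build is not given in the sources used here. RMA equalises the distributions of the arrays, so a shift shared by most clusters would not be seen, and it compresses differences of dim clusters.

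Symbols came from the platform annotation, and where a gene had more than 1 cluster the brightest on average was kept. The fit used limma 3.58.1 in R 4.3.3 (lmFit and eBayes, group as the only term, two-sided), without a filter, and p-values were adjusted by Benjamini-Hochberg over the 35556 clusters. No gene set test was run. A permutation of 3 arrays against 3 cannot give a two-sided p below 0.1. The steps were tested on simulated data.

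The members and lists were chosen with earlier results of these data known. By the rule for naming genes, all antagonists, and in each other list the genes past the test, were named (Kremen1, Kremen2, Wt1 and the named markers were picked out after their values were seen). Genes most like an antagonist were to be named for those past the test, of which there were none. Tcf7 was not analysed here. Alternatives were limma-trend with robust estimation, a replicate block, median centring, cyclic loess, brighter clusters alone, clusters with 1 symbol alone, clusters averaged per gene, the methods' t-test, and leaving out each array. Array values carry no counts, so the number of arrays limits the precision.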

Additional observations from a re-analysis of the deposited data

How the results depend on the processing

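Beside the value of 0 with all arrays, the number of antagonists past the test was 1 (Dkk2) with limma-trend and robust estimation and 2 (Frzb and Dkk2) with brighter clusters alone, with clusters of 1 symbol alone, with clusters averaged per gene and with the methods' t-test without adjustment. Of all clusters, 1783 of 35556 passed with limma-trend, 2112 of 17778 with brighter clusters alone and 2038 of 21789 with clusters of 1 symbol alone. With clusters averaged per gene 1889 of 19938 genes passed. The number of antagonists past the test lay between 0 and 2 with each array left out, with 2 without proliferation replicate 2. The log2 differences stayed at 0.95 for Frzb and 0.79 for Dkk2 in these settings, since only the adjustment or the variance changed: adjusted p = 0.0396, 0.0292 and 0.0278 for Frzb with the 3 choices of clusters, and 0.0240, 0.0168 and 0.0159 for Dkk2, with 0.0373 for Dkk2 under limma-trend. With each array left out the difference lay between 0.77 and 1.22 for Frzb and between 0.60 and 0.90 for Dkk2. Sfrp5 turned to 0.078 without proliferation replicate 1 (lowest -0.14), and every other antagonist kept its direction in all settings in which it was tested. Sfrp2, Sfrp5, Dkk1 and Wif1 were too dim for the setting with brighter clusters alone.

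Same-numbered arrays did not deviate together (correlations of -0.00301, 0.0898 and -0.0742 over clusters), and not every array correlated best with its own number. With the replicate number as a block, 0 antagonists passed (adjusted p = 0.0964 for Frzb and 0.0897 for Dkk2), the count of receptors past the test was 1 and that of all clusters 664 instead of 1459. After Benjamini-Hochberg adjustment the methods' t-test called 1 of the other inhibitors, 0 ligands, 0 receptors, 1 target and 253 clusters. With each array left out the counts lay between 3 and 4 for the other inhibitors, 1 and 2 for ligands, 1 and 2 for receptors, 3 and 6 for targets, and 294 (without differentiation replicate 1) and 1297 for all clusters, with 480 when proliferation replicate 3 was omitted, 683 for differentiation replicate 2 and 850 for differentiation replicate 3. Fzd8 did not pass with the block, cyclic loess or median centring, and Draxin, Lrp5, Axin2 and Ccn4 did not pass with the block.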
